A study of Mus musculus with 42 samples.

Results

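The genes described here are the core of the odour transduction cascade, 10 of the 44674 genes in the count table. They were taken by name (GENCODE M21 symbols) and not by a cut on their values, though with earlier results of these data known. They are Gnal, Gnb1, Gng13, Ric8b, Adcy3, Cnga2, Cnga4, Cngb1, Ano2 and Slc12a2. Main olfactory epithelia of adult male C57BL/6NCrl mice aged 8 to 12 weeks were collected after 1 h of exposure, and 4 epithelia were combined into each pool. There were 5 pools without odour, 6 with the odour of normal chow (NCD), 5 with that of a bacon-flavoured diet matched to NCD in nutrients (bacon) and 5 with that of a lard-based high-fat diet (HFD). Each of the 21 pools gave an input library and a pulldown library, the latter made with an antibody against phosphorylated ribosomal protein S6. Every pool was a mixture of the cell types of the epithelium, so the pulldown drew on any cell with phosphorylated S6 and not on olfactory sensory neurons (OSNs) alone.

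An odorant that binds its receptor on an OSN cilium activates the G protein Golf, whose alpha subunit is encoded by Gnal and whose beta and gamma subunits are encoded by Gnb1 and Gng13. Golf activates adenylyl cyclase 3 (Adcy3), cyclic AMP opens the channel formed by Cnga2, Cnga4 and Cngb1, and the calcium that enters opens the chloride channel anoctamin 2 (Ano2). The chloride that then leaves the cilium is loaded by the cotransporter NKCC1, the product of Slc12a2, while Ric8b acts as a chaperone and exchange factor of Golf. S6 becomes phosphorylated in active neurons, among other cells. The ratio of pulldown to input compares the level of a messenger RNA on ribosomes with phosphorylated S6 with its level in the whole tissue, and it can move through either.

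The 10 genes differ widely in size. Their annotated exons, merged over transcripts, covered 773 bases in Gng13, 2663 in Cnga4, 3095 in Cnga2, 4268 in Gnb1, 5272 in Ric8b, 5385 in Ano2, 6246 in Adcy3, 9355 in Cngb1, 10920 in Slc12a2 and 11172 in Gnal. Gng13 is shown because the differences between odours were largest in it. It lies on the forward strand of chromosome 17 (GRCm38, 25717171 to 25719406), and its main coding transcript has 3 exons and 67 codons. The 98 bases of its first coding exon, chr17:25718701-25718798, are printed with the start codon in capitals.
Gng13 first coding exon: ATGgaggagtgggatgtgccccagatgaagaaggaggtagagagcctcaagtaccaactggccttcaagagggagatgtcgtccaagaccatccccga
Of the exon bases of Gng13, 399 (51.6%) lie opposite exons of Chtf18, and 46.2% of its 31-base words also occur in another gene's transcripts. The libraries did not mark strand, so reads of that stretch cannot be told apart, although over all 42 libraries Chtf18 held 16919 estimated counts against 921950 for Gng13. Adcy3 shared 20.1% of its words (Cenpo lies opposite 1380 of its exon bases) and Gnal shared 8.02%. The other 7 members shared at most 0.584%.

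The RefSeq promoter table (GRCm38.p6) held 8 of the 10 members, all but Gnal and Slc12a2. Both strands of the 250 bases before each annotated start were searched for CCCNNGGGA, which is part of the palindrome bound by Olf-1/EBF factors, known regulators of OSN genes. It was found before 3 of 8 members, in 25% of their 12 windows and in 5.6% of all 32851 windows. The same letters preceded by T, which make the full palindrome, were in 0 of 12 windows of members and in 0.779% of all. The homeodomain letters TAATTA, which overlap neither, were in 0 of 12 and in 4.84% of all. The 3 matches are printed in capitals within the 100 bases from −130 to −31 of the start, as the only matches among the members. The windows are chrX:71991719-71991818 for Cnga2, chr17:25717042-25717141 for Gng13 and chr6:125711058-125711157 for an inner start of Ano2, all on the forward strand.
Cnga2: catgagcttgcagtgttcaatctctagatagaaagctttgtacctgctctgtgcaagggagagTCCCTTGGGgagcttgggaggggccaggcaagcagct
Gng13: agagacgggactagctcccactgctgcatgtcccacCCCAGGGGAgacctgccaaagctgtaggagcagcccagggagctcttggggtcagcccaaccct
Ano2: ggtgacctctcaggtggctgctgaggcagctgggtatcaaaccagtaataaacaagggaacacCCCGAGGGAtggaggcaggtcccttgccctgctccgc
A match describes these letters and does not show binding.

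Depth was even, at 24839555 to 36781553 counts per library, and the lowest count of any member in any library was 2562. All 10 members passed the filter on low counts. The libraries differed in their share of ribosomal RNA genes, which was 24.74% ± 3.62 of the input counts without odour (SD, n = 5) and 13.0% ± 2.81 with any odour (n = 16), and 19.09% ± 4.93 and 11.25% ± 2.605 of the pulldown counts. None of 8 markers of mature OSNs was at 0. In the pulldown their summed level ran from 15909 to 19763 CPM without odour and from 17100 to 24690 with an odour. In the inputs without odour it ran from 13894 to 18990 CPM, which overlapped the pulldown. Markers of sustentacular cells (6 genes) summed to 5721 to 8128 CPM in the inputs and to 1331 to 3749 CPM in the pulldowns. Without odour, Bowman gland markers summed to 859 to 1810 CPM in the inputs and to 3179 to 4516 CPM in the pulldowns. Markers of immature OSNs, globose basal cells, respiratory ciliated cells, erythroid cells, macrophages and neutrophils were likewise higher in those pulldowns. Those of horizontal basal, olfactory ensheathing and endothelial cells were lower. CPM are counts scaled to a common library size, here after trimmed-mean (TMM) normalization over all genes.

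Without odour, the G-protein subunits were the most abundant members and Ano2, Cngb1 and Slc12a2 the least. Per kilobase of exon, the input level was 731 ± 53.0 CPM for Gnb1 and 690.5 ± 205 for Gng13 (SD, n = 5), and their ranges overlapped. Gnal followed at 299.6 ± 30.4 CPM per kilobase, Ric8b at 159 ± 5.53, Cnga2 at 93.0 ± 7.80, Cnga4 at 59.4 ± 5.96 and Adcy3 at 33.1 ± 3.40, and no range overlapped that of a neighbour. Ano2 (20.5 ± 2.28), Cngb1 (15.6 ± 1.68) and Slc12a2 (14.9 ± 1.39) came last, and each range overlapped that of the next. Among the subunits of the cyclic-nucleotide-gated channel, Cnga2 was the highest and Cngb1 the lowest. Merged exons exceed the main coding transcript, 11172 against 5736 bases in Gnal and 773 against 719 in Gng13, so the choice of length enters this order. The main coding transcript is taken here as the annotated one with the longest coding sequence, and which transcript was expressed was not tested. For Cngb1 it has 6189 bases, while other coding transcripts have 3243 and 3336.

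**Figure D1:**
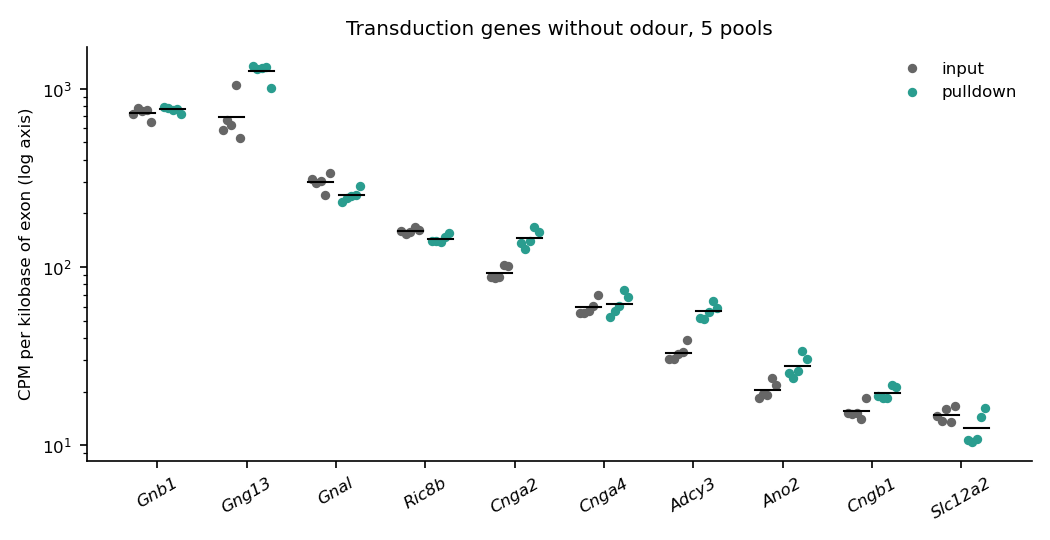
Input (grey) and pulldown (green) level of the 10 genes in the 5 pools without odour, in TMM-normalized CPM per kilobase of merged exon on a log axis. Points are pools and black lines are means. Gnb1 and Gng13 lead in the input with overlapping values, and Ano2, Cngb1 and Slc12a2 lie at the low end.

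The pulldown was first compared with the input in the absence of odour. Adcy3, the channel subunits Cnga2 and Cngb1, the chloride channel Ano2 and Gng13 were higher in the pulldown, by 1.27-fold to 1.86-fold. No member passed the threshold as lower in the main fit, in edgeR with TMM normalization and all pools. In some alternative fits given below, Gnal, Ric8b or Slc12a2 did. In this bulk material, more cells of a type and more RNA per cell cannot be told apart. The threshold was an adjusted p under 0.001 in the quasi-likelihood test of edgeR, fitted with a term for each pool (Benjamini-Hochberg over 21168 genes). It was passed by 5 of 10 members, where 35.8% of all genes passed it, 19.8% as higher and 16% as lower. At a looser 0.05 it was 8 of 10, beside 59.5% of all genes. The members' median log2 fold change was 0.21 and that of all genes 0.01.

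Adcy3 had pulldown-to-input ratios of 1.70, 1.67, 1.72, 1.95 and 1.51 in pools 1, 2, 3, 4 and 6 without odour. All 5 lay above 1, with a log2 fold change of 0.77 (SE 0.06, adjusted p = 2.13e-10). Cnga2, the principal subunit of the olfactory channel, had ratios of 1.55, 1.45, 1.59, 1.65 and 1.56 in the same order (log2 fold change 0.64, SE 0.07, adjusted p = 7.26e-09). Cngb1, its modulatory partner, had 1.24, 1.23, 1.21, 1.56 and 1.15 (0.34, SE 0.06, adjusted p = 5.6e-05). Pool 4 stood above the other 4 in Cngb1. Ano2 had 1.38, 1.23, 1.36, 1.41 and 1.39 (0.44, SE 0.06, adjusted p = 7.71e-07), with pool 2 the lowest. Gng13 had 2.29, 1.93, 2.11, 1.26 and 1.91, pool 4 being the lowest here (0.90, SE 0.17, adjusted p = 0.000111). Without pool 1, Gng13 no longer passed the threshold (log2 fold change 0.82, adjusted p = 0.00104).

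The remaining members lay near or below 1. The ratio of Gnb1 ran from 0.991 to 1.11 and that of Cnga4 from 0.950 to 1.23 (log2 fold change 0.07 for each, adjusted p = 0.382 and 0.311). Gnal had 0.748, 0.825, 0.814, 1.00 and 0.846 (−0.25, adjusted p = 0.00169). Slc12a2 ran from 0.678 to 1.07 (−0.27, adjusted p = 0.0104) and Ric8b from 0.879 to 0.962 (−0.14, adjusted p = 0.0232). The alpha, beta and gamma subunits of Golf thus had fitted ratios of 0.843, 1.05 and 1.86, and the channel subunits had 1.56 for Cnga2, 1.27 for Cngb1 and 1.05 for Cnga4. These log2 fold changes also ran with exon length (Spearman −0.55 over the 10 members). Coding genes under 1000 bases had a median of 0.44 here and those of 8000 or more had −0.02. Within these classes 76.4% of genes lay below Gng13 and 32.3% below Gnal. Scaling on the mature OSN markers lowered the log2 ratio of every gene by 0.14. Gnal, Ric8b and Slc12a2 then passed the threshold as lower (−0.39, −0.29 and −0.42, adjusted p = 4.94e-05, 6.21e-05 and 0.0008), Cngb1 no longer passed it (0.20, adjusted p = 0.00992), and Gnb1 and Cnga4 changed sign (−0.08 each). Gnal also passed as lower with DESeq2's size factors (adjusted p = 0.000729), with at least 1 CPM in 5 libraries (adjusted p = 0.000404), with an offset for gene length (adjusted p = 0.00011), without HFD pool 2 (adjusted p = 0.000948) and without no-odour pool 4 (adjusted p = 4.07e-05). Slc12a2 passed without that pool 4 too (adjusted p = 0.000867). DESeq2 with the same design called Gnal (adjusted p = 1.13e-05) and Ric8b (adjusted p = 0.000356) lower.

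Over all 21 pools the members differed in the level of the ratio. Gng13, Adcy3, Cnga2, Cngb1 and Ano2 were above 1 in 21 of 21 pools, whereas Gnal and Slc12a2 were above 1 in 1 pool each. Gng13 had the highest median ratio at 3.26 (1.26 to 7.04), followed by Cnga2 at 1.82 (1.44 to 2.17) and Adcy3 at 1.62 (1.29 to 1.95). The medians were 1.41 for Ano2, 1.32 for Cngb1, 1.23 for Gnb1, 1.09 for Cnga4 and 0.984 for Ric8b. Gnal (0.746) and Slc12a2 (0.742) were the lowest. Gng13 also varied most, with an SD of 0.61 for the log2 ratio over the 21 pools against 0.11 to 0.21 for the other 9 members.

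**Figure D2:**
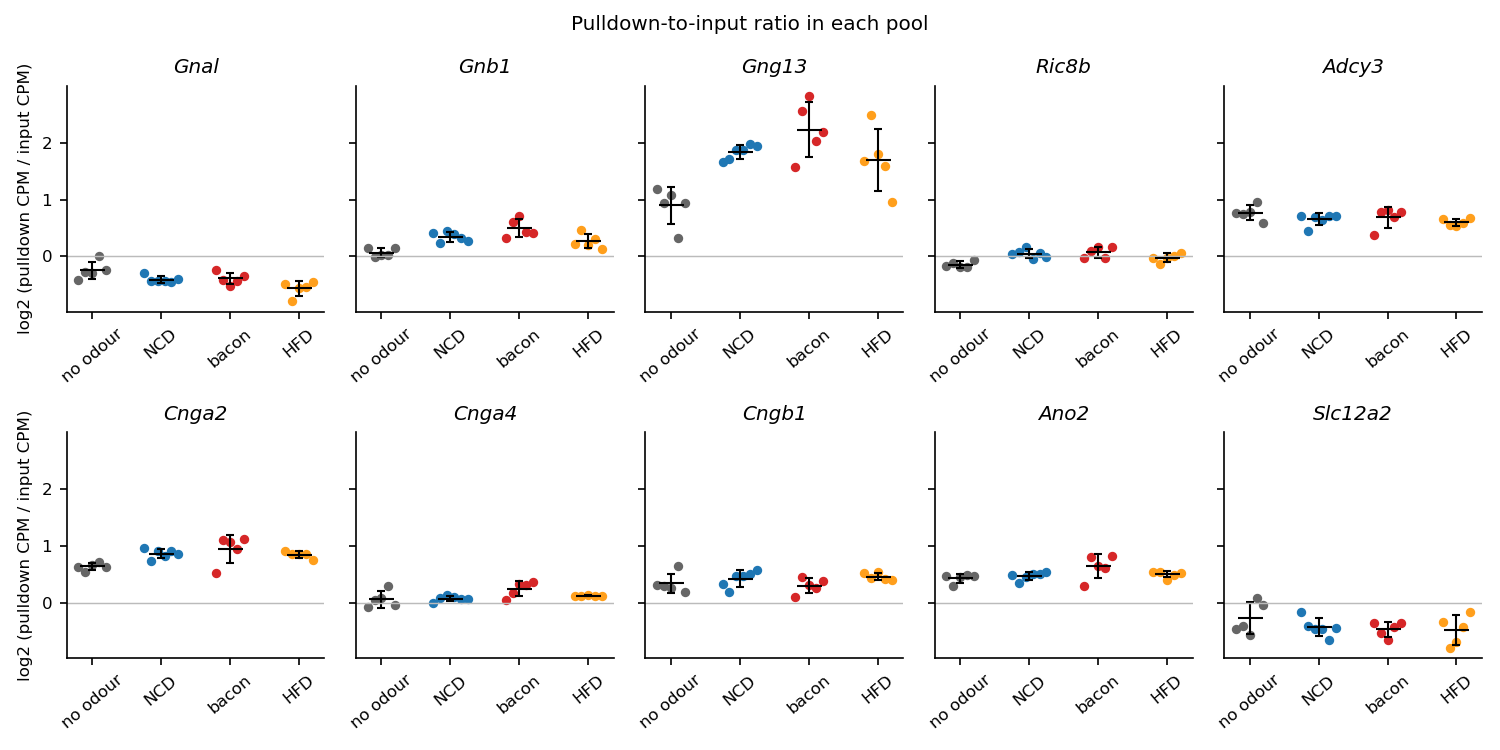
Log2 ratio of pulldown to input CPM of each gene in each pool, by odour, with the mean and SD of each group in black. The log2 ratio of Gng13 runs from 0.33 to 2.82, while the other members stay within narrower bands that differ from gene to gene.

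Whether a food odour moved the ratio was then tested for NCD, bacon and HFD against no odour. Gng13 passed with bacon, where its fitted ratio was 2.52-fold that without odour, and no other member passed with any odour. These comparisons share the 5 pools without odour, so their values are given side by side. With bacon 1 of 10 members passed, where 3.78% of all genes did. With NCD it was 0 of 10, beside 0.524% of all genes, and with HFD 0 of 10, beside 1.22%. At an unadjusted p under 0.05, edgeR counted 4, 6 and 4 members with NCD, bacon and HFD, and DESeq2 with the same design called 0, 2 and 0 at the threshold. The share of all genes at an unadjusted p under 0.05 was not counted, here or below. The share at an adjusted p under 0.05 gives only a lower bound for it. Without that share, such counts cannot show whether the members differ from other genes. At an adjusted p under 0.05, 2, 4 and 2 members passed, beside 13.1%, 22.5% and 15.7% of all genes.

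The ratio of Gng13 without odour was 1.26 to 2.29, as given above. With bacon it was 2.96, 5.90, 7.04, 4.07 and 4.54 in pools 1 to 5 (log2 fold change 1.33, SE 0.24, adjusted p = 0.000614). With NCD it ran from 3.17 over a median of 3.66 to 3.95 (0.94, SE 0.22, adjusted p = 0.0107). All bacon and NCD pools lay above the 5 without odour. The share of all genes whose groups did not overlap was not counted, here or below. With HFD the ratios were 3.20, 5.58, 3.47, 3.02 and 1.94 in pools 1, 2, 3, 5 and 6, the last of which overlapped the pools without odour (0.80, SE 0.24, adjusted p = 0.0261). The call with bacon was lost on leaving out any of 7 pools, which were pools 2, 4 or 6 without odour and bacon pools 2, 3, 4 or 5 (log2 fold change 1.19 to 1.39, adjusted p = 0.00118 to 0.00303). Among the pulldown libraries alone, Gng13 differed between bacon and no odour by 0.23 on the log2 scale (adjusted p = 0.271).

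Gnb1, which forms the beta-gamma dimer with Gng13, had ratios of 1.10, 0.991, 1.02, 1.01 and 1.11 without odour and 1.26, 1.53, 1.64, 1.34 and 1.34 with bacon. The groups did not overlap (log2 fold change 0.43, SE 0.09), but the adjusted p of 0.00122 missed the threshold. Gnb1 passed it in DESeq2 with the same design (0.44, adjusted p = 2.15e-06), without bacon pool 1 (0.47, adjusted p = 0.000369) and without HFD pool 2 (0.43, adjusted p = 0.000683). It also passed with DESeq2's size factors, the 1 CPM filter, no filter beyond 1 count and the length offset (adjusted p = 0.000998, 0.000429, 0.000883 and 0.00035). It did not pass under scaling on the OSN markers (0.27, adjusted p = 0.0236), with only the groups compared (0.45, adjusted p = 0.0128) or with ribosomal RNA content as a covariate (0.38, adjusted p = 0.0813). Among the pulldown libraries alone its level differed by 0.0057 (adjusted p = 0.961). With NCD its ratio ran from 1.17 over a median of 1.28 to 1.36, again without overlap (0.28, adjusted p = 0.0312), and with HFD from 1.09 to 1.38 (0.20, adjusted p = 0.131). Gnal differed in the opposite direction. With HFD its ratios were 0.714, 0.579, 0.685, 0.690 and 0.730, below all 5 without odour (−0.32, SE 0.09, adjusted p = 0.0183), and with NCD and bacon it differed by −0.16 and −0.14 (adjusted p = 0.227 and 0.296).

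The members outside the G protein did not pass with any odour. The log2 fold change of Cnga2 was 0.23 with NCD, 0.31 with bacon and 0.21 with HFD (adjusted p = 0.0891, 0.0161 and 0.128). Its ratio in bacon pool 1, 1.44, lay below all 5 without odour, while the other 4 were at 1.92 to 2.17. Without that pool Cnga2 passed the threshold (0.42, adjusted p = 0.000207). Scaling on the OSN markers lowered its bacon difference to 0.14 (adjusted p = 0.175), and the fits with ribosomal RNA content and with only the groups compared gave adjusted p = 0.0655 and 0.0672. Ric8b differed by 0.19, 0.22 and 0.12 (adjusted p = 0.0757, 0.0374 and 0.302), Ano2 by 0.04, 0.21 and 0.07, and Cnga4 by 0.01, 0.18 and 0.06. The differences were −0.12, −0.08 and −0.17 for Adcy3, 0.08, −0.04 and 0.12 for Cngb1, and −0.16, −0.19 and −0.21 for Slc12a2. The median over the members was 0.06, 0.20 and 0.09. Over all genes it lay between −0.01 and 0.00. Scaling on the OSN markers moved the log2 ratio difference of every gene by −0.06 with NCD, −0.17 with bacon and 0.02 with HFD. The members' median was then 0.0068, 0.029 and 0.11, and with bacon Ric8b had 0.05, Ano2 0.04 and Gng13 1.17 (adjusted p = 0.67, 0.727 and 0.000644). Under it Ano2 and Cnga4 changed sign with NCD (−0.015 and −0.05).

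The input libraries were compared next, since a ratio can move through either of its parts. With bacon, Gng13 and Gnb1 were lower and Cngb1 was higher than without odour, so that 3 of 10 members passed where 13.7% of all genes did (5.41% as higher and 8.34% as lower). With NCD (0 of 10, beside 0.998% of all genes) and HFD (0 of 10, beside 0.963%) none passed, although DESeq2 with the same design called 2 in each. At an unadjusted p under 0.05, edgeR counted 6, 6 and 5 members with NCD, bacon and HFD. At an adjusted p under 0.05 it was 4, 6 and 4, beside 23.5%, 39.8% and 21.7% of all genes.

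Gng13 stood at 454, 516, 481, 809 and 409 input CPM in pools 1, 2, 3, 4 and 6 without odour, pool 4 lying far above the rest. With bacon it stood at 229, 244, 178, 253 and 281 CPM, all lower (log2 fold change −1.17, SE 0.22, adjusted p = 0.00039). It no longer passed without pool 4 of the no-odour group (−0.99, adjusted p = 0.0016) or without any 1 of bacon pools 1 to 4 (−1.20 to −1.08, adjusted p = 0.00103 to 0.00168). With NCD it ran from 279 over 308 to 381 CPM, also without overlap (−0.73, adjusted p = 0.0165), and with HFD it was 356, 196, 323, 382 and 548 CPM (−0.57, adjusted p = 0.0658). In the pulldown the group means lay closer, at 969 ± 107 CPM without odour, 1156 ± 169 with NCD, 1135 ± 293 with bacon and 1113 ± 35.9 with HFD. The pulldown of bacon pool 1 held 679.8 CPM and the other 4 held 1031 to 1441.

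Gnb1 stood at 3066, 3340, 3191, 3250 and 2758 input CPM without odour and at 2231, 2319, 2090, 2348 and 2571 with bacon, again without overlap (log2 fold change −0.43, SE 0.08, adjusted p = 0.000166). Cngb1 differed in the other direction, from 142, 139.8, 143, 131 and 172 CPM to 193, 184, 200.3, 192 and 179 (0.38, SE 0.07, adjusted p = 0.000126). Its pulldown level was 172 to 204 CPM without odour and 207 to 252 CPM over the 16 odour pools, which all lay above. Among the pulldown libraries alone Cngb1 passed the threshold with NCD (0.32, adjusted p = 0.000369), bacon (0.35, adjusted p = 0.000176) and HFD (0.38, adjusted p = 7.22e-05). The ratio of Cngb1 did not pass with any of them.

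Other members with long merged exons leaned the way of Cngb1 in the input without passing. Gnal stood at 2819 to 3747 CPM without odour and at 3815 to 4798 CPM with an odour. All 16 odour pools thus exceeded the 5 without (log2 fold change 0.32, 0.30 and 0.30 with NCD, bacon and HFD, adjusted p = 0.00661, 0.00522 and 0.0111). The share of all genes that separated in this way was not counted. Of coding genes of 8000 bases or more, 81.1%, 56.4% and 74.7% lay below Gnal in these differences. Adcy3 differed by 0.29, 0.28 and 0.25 (adjusted p = 0.00274, 0.00104 and 0.00714) and Slc12a2 by 0.21, 0.38 and 0.18 (adjusted p = 0.0729, 0.0017 and 0.165). The log2 fold changes of Cnga2, Cnga4, Ric8b and Ano2 lay between −0.03 and 0.12 in the 3 comparisons. Cnga2 held 269 to 317 CPM over all 21 inputs.

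**Figure D3:**
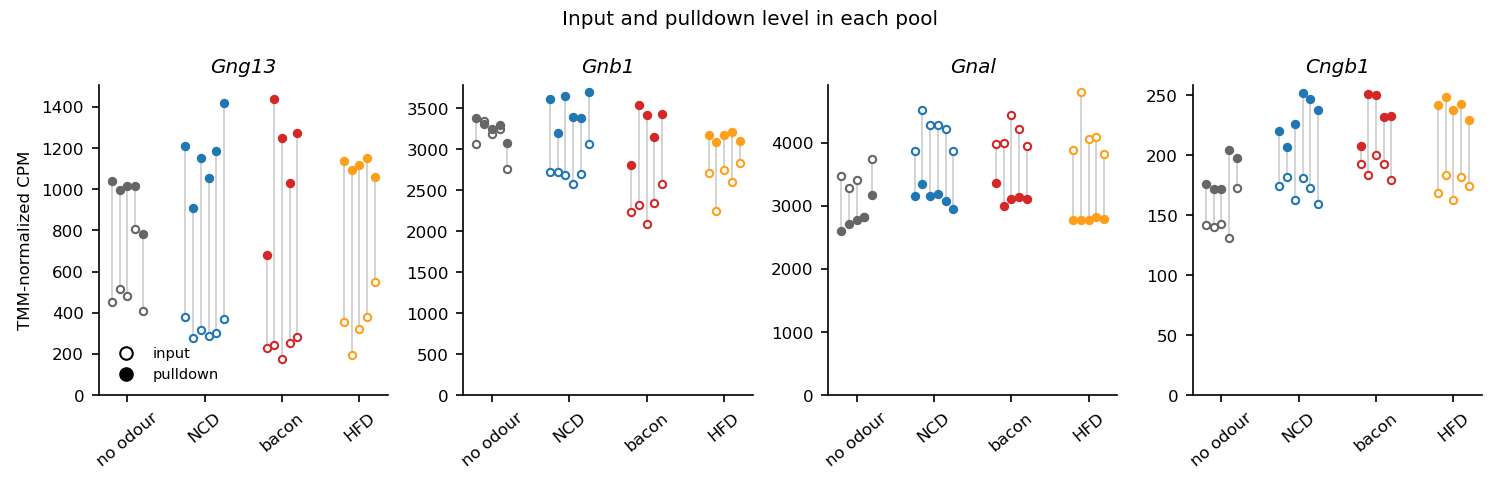
TMM-normalized CPM of Gng13, Gnb1, Gnal and Cngb1 in the input (open) and pulldown (filled) of each pool, joined by a grey line, on axes that start at 0. The inputs of Gng13 lie at 409 to 809 CPM without odour and at 178 to 281 CPM with bacon, and those of Gnal lie higher with every odour than without.

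The order of these differences followed the length of the genes. Gng13, the shortest member, had the highest log2 fold change of the ratio with all 3 odours, and Gnal and Slc12a2, the longest, had the lowest 2. Spearman's correlation of log2 fold change with exon length over the 10 members was −0.76 with NCD, −0.84 with bacon and −0.77 with HFD for the ratio, and 0.75, 0.76 and 0.78 for the input. Without Gng13 it was −0.67, −0.78 and −0.68 for the ratio and 0.65, 0.67 and 0.70 for the input. With the length of the main coding transcript it was −0.66, −0.81 and −0.68, and 0.66, 0.77 and 0.72. That transcript was the one with the longest coding sequence, 6189 bases for Cngb1 and 5736 for Gnal. Shorter coding transcripts have 3243 and 3336 bases for Cngb1 and 3470 for Gnal. Which was expressed was not tested, so this second length cannot decide whether the order holds for the expressed transcripts. The correlations describe 10 genes measured in the same libraries.

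All coding genes showed the same order. With bacon, the 444 tested genes under 1000 bases of exon had a median log2 fold change of −0.71 in the input, and the 2709 genes of 8000 bases or more had 0.26. In the ratio the medians were 0.56 (487 genes) and −0.26 (2718 genes). With NCD they were −0.44 and 0.16 in the input and 0.35 and −0.19 in the ratio, and with HFD −0.38 and 0.16, and 0.37 and −0.22. Within its class, the bacon input difference of Gng13 was lower than that of most genes under 1000 bases, of which 11.5% lay below it, and for Gnb1 4.90% of genes of 4000 to 8000 bases lay below. For Cngb1 69.0% of genes of 8000 bases or more lay below, so it stood within the middle of that class. The class rests on 9355 bases of merged exon, whereas some coding transcripts of Cngb1 have 3243 and 3336 bases. Coding genes of 2000 to 4000 bases had a median of −0.12 in the bacon input (quartiles −0.33 and 0.08), below the 0.38 of Cngb1. Which transcript was expressed was not tested. In the bacon ratio 91.8% of its class lay below Gng13 and 93.3% below Gnb1.

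The contrast of short and long genes also differed between libraries. As the median centred log2 level of genes under 1000 bases minus that of genes of 8000 or more, it was 0.45 ± 0.37 in the inputs without odour (SD, n = 5), −0.06 ± 0.13 with NCD (n = 6), −0.35 ± 0.10 with bacon (n = 5) and −0.02 ± 0.24 with HFD (n = 5). The input of no-odour pool 4, where Gng13 was highest, had 1.09, and the pulldown of bacon pool 1, where Gng13 was lowest, had −0.54. Within the HFD inputs, pool 2 with 196 CPM of Gng13 had −0.38 and a ribosomal RNA share of 9.38%, and pool 6 with 548 CPM had 0.28 and 18.9%.

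The members were therefore also fitted with an offset for gene length (merged exons), chosen after seeing the data. Another fit took ribosomal RNA content as a covariate. With the offset, Gng13 (0.93, adjusted p = 5.91e-05) and Gnb1 (0.44, adjusted p = 0.00035) both passed in the bacon ratio. In the bacon input Gnb1 passed (−0.42, adjusted p = 0.000107), while Gng13 (−0.56, adjusted p = 0.00137) and Cngb1 (0.18, adjusted p = 0.0091) did not. With ribosomal RNA content as a covariate no member passed in any comparison of odours. Gng13 then had 0.99 in the bacon ratio (adjusted p = 0.0833), and in the bacon input Gng13 and Gnb1 changed sign to 0.32 and 0.019 (adjusted p = 0.931 and 0.994). Gnal and Slc12a2 changed sign there to −0.18 and −0.26 (adjusted p = 0.927 and 0.898), and these 4 genes changed sign in the NCD and HFD inputs as well. That share was 19.2% to 28.1% in the inputs without odour and 9.38% to 18.9% in all others, so that it and the exposure cannot be told apart. The part of gene length in the results was not tested further.

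**Figure D4:**
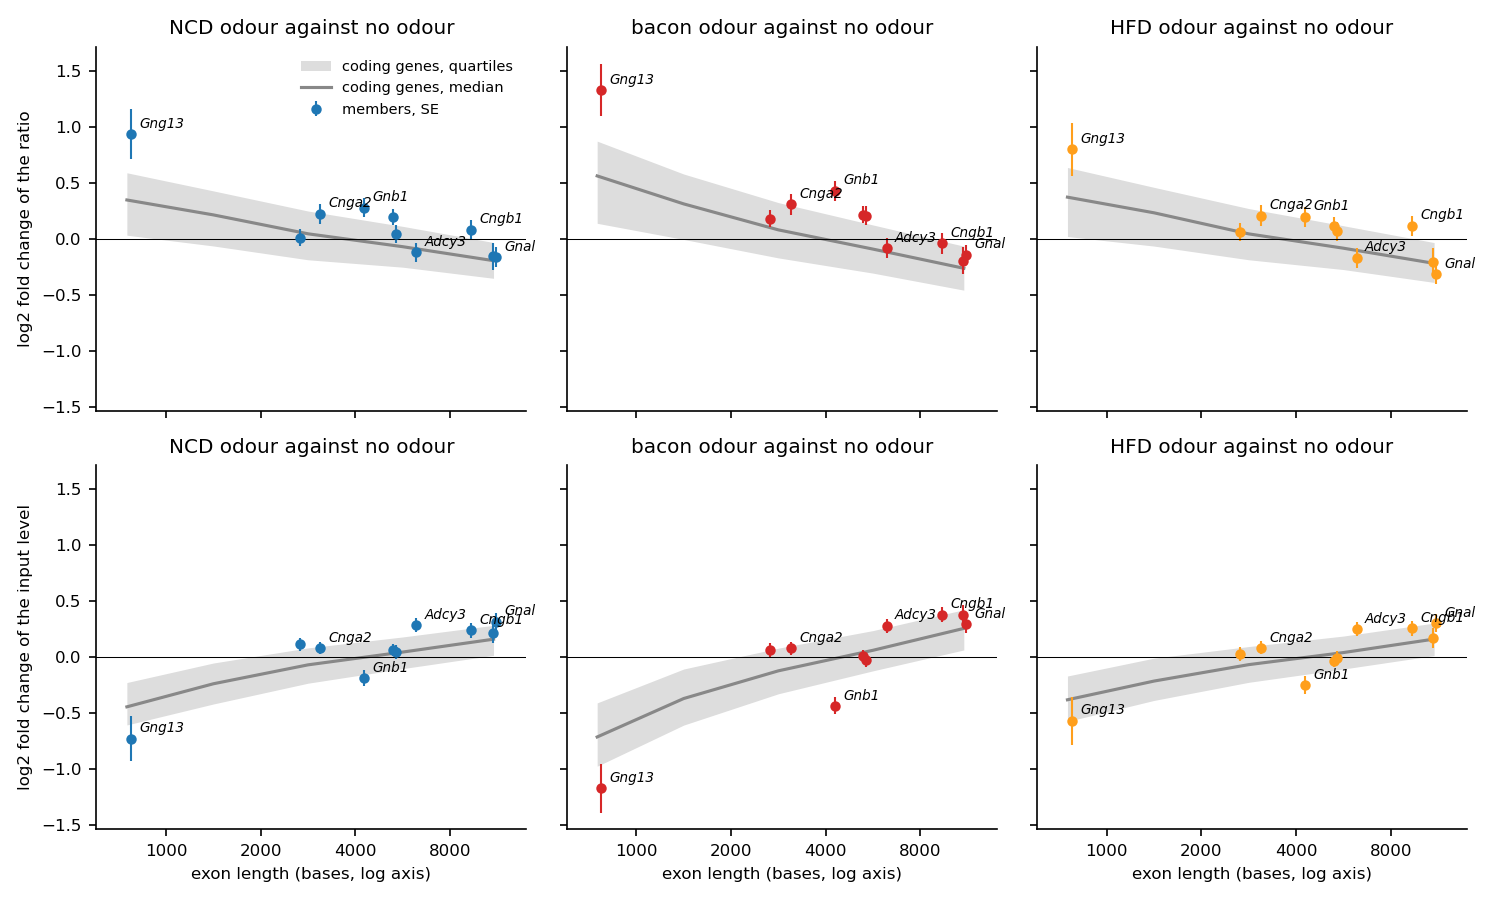
Log2 fold change against no odour of the 10 genes (points with SE) against their exon length in bases on a log axis, for the ratio (top) and the input (bottom). The grey line and band are the median and quartiles of all coding genes by length class. The members run from Gng13 at 773 bases to Gnal at 11172 bases. Among the points outside the band are Gng13 and Gnb1, which lie below it in the bacon input.

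The food odours were last compared with each other. No member passed in the ratio or the input between bacon and NCD, HFD and NCD or HFD and bacon. Of all genes, 0.00945%, 0.0236% and 0.0378% passed in the ratio and 0.108%, 0.0538% and 0.0831% in the input. At an unadjusted p under 0.05, for which no share of all genes was counted, edgeR found 2, 0 and 2 members in the ratio and 3, 0 and 3 in the input. DESeq2 with the same design called 0 in each at the threshold. The largest difference in the ratio was that of Gng13 between HFD and bacon, −0.53 on the log2 scale with an unadjusted 95% interval of −0.99 to −0.07 (adjusted p = 0.595). Between bacon and NCD it was 0.39, with an interval of −0.05 to 0.83. For the other 9 members the intervals of the ratio lay within −0.41 and 0.34.

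Other genes of the pathway moved in both directions. Of 19 genes of signal termination and adaptation, 7 were higher and 1 lower in the pulldown without odour, beside 19.8% and 16% of all genes, with a median of 0.22. Rgs2, a regulator of G-protein signalling, had a log2 fold change of −0.80 (adjusted p = 1.11e-08), the beta-arrestin Arrb2 0.75 (adjusted p = 6.78e-08) and Slc24a4, an exchanger that removes calcium, 0.55 (adjusted p = 6.19e-07). Of 5 genes listed together under receptor transport, Gfy (0.46, adjusted p = 1.72e-05) and Stoml3 (0.49, adjusted p = 1.97e-05) were higher in the same comparison. Rtp2 (−0.33, adjusted p = 1.21e-05) was lower there. The heading names the list and does not state what each gene does. With bacon, 1 of the 19 passed in the ratio, the olfactory marker protein Omp (0.64, adjusted p = 0.000189), and 0 of the 5, beside 3.78% of all genes. In the bacon input 4 of the 19 were higher and 2 lower, beside 5.41% and 8.34% of all genes, with the smallest p for the calmodulin gene Calm3 (−0.42, adjusted p = 0.000121), Slc24a4 (0.53, adjusted p = 0.000194) and the calcium pump Atp2b1 (0.50, adjusted p = 0.000206). With NCD and HFD 0 of the 19 passed in edgeR, where 11 and 10 had an unadjusted p under 0.05 in the ratio and 11 and 10 in the input. For receptor transport 0 of 5 passed with any odour, where 1, 1 and 2 had an unadjusted p under 0.05 in the ratio with NCD, bacon and HFD and 2, 2 and 3 in the input. No share of all genes was counted for these unadjusted values.

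Paralogs of the members and other genes of channels and chloride transport were counted in the same way. Of 23 related G-protein genes, 7 were higher and 8 lower in the pulldown without odour, where 35.8% of all genes passed, with the smallest p for Gnao1 (0.94, adjusted p = 9.42e-11), Gngt2 (1.78, adjusted p = 1.21e-10) and Gng3 (1.36, adjusted p = 1.34e-10). In the bacon input 0 were higher and 6 lower, where 13.7% of all genes passed and 8.34% passed as lower, with the smallest p for the gamma subunits Gng11 (−1.09, adjusted p = 3.26e-05), Gng10 (−0.93, adjusted p = 0.000104) and Gng5 (−0.71, adjusted p = 0.000141), whose exons cover 919, 1314 and 2765 bases. Gng10 also passed in the bacon ratio (0.84, adjusted p = 0.000962) and Gng11 in the NCD input (−0.87, adjusted p = 0.000659), each as 1 of 23. The ratio with NCD or HFD and the HFD input gave 0 of 23 in edgeR, where 8, 8 and 12 had an unadjusted p under 0.05. Of 8 tested adenylyl cyclase paralogs, Adcy2 was lower in the pulldown (−0.83, adjusted p = 0.000922) and Adcy9 higher in the bacon input (0.79, adjusted p = 0.000176). Of 17 tested channel and chloride transport genes, 3 were higher and 1 lower in the pulldown. The smallest p was that of the anion exchanger Slc4a1 (1.41, adjusted p = 6.61e-12), which is not a paralog of a member. In the ratio none of them passed with any odour in edgeR, where the counts with an unadjusted p under 0.05 were 1, 3 and 2 cyclases and 2, 3 and 3 channels and transporters. No share of all genes stands beside the unadjusted counts. Slc4a1 is also an erythroid marker, and 4 of 4 erythroid markers were higher in that pulldown, where they summed to 763 to 1106 CPM against 181 to 357 CPM in the inputs. The part of blood cells in the result was not tested.

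Over all 42 libraries the members did not share 1 profile. The root-mean-square distance of a member's centred log2 CPM from the mean profile of the 10 was 0.096 for Ano2, 0.14 for Cnga4 and Cngb1, 0.15 for Gnb1, 0.18 for Adcy3, 0.20 for Ric8b and 0.24 for Cnga2. It was 0.41 for Gnal, 0.43 for Slc12a2 and 0.75 for Gng13, while the root mean square of the mean profile itself was 0.20. Among the 5 other genes nearest to that profile, of 21168 tested, were Ptprr (0.072), Tcf25 (0.073), Cds1 (0.074) and Pigq (0.075).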

How the data were processed

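RNA from 42 libraries (21 pools, each with an input and a pulldown) was sequenced by the authors, who quantified it with Salmon against GRCm38 in the nf-core pipeline. The deposited values are estimated counts per gene, which need not be whole, and were rounded here. Preparation did not mark strand. Counts were analysed with edgeR 4.0.16 (R 4.3.3), using TMM normalization, filterByExpr with a minimum count of 10 and robust quasi-likelihood fits. The ratio was tested as the interaction of pulldown and odour with a term for each pool (21168 genes), and input levels in the 21 inputs (20451 genes). Pulldown and input of a pool came from the same tissue, which gives that pairing, and after subtracting group means the 2 libraries of a pool correlated at a median of 0.062 over the 21 pools. DESeq2 1.42.0, other scalings, filters and covariates were alternatives. Intervals use the SE of the fit. Pools are the replicates, and p-values measure the spread between them. The 10 members, the other lists and the rules for named genes were chosen with earlier results of these data known. From each list, at most 3 genes with the smallest p past the threshold were named; some genes that the rules would name are not reported here. The scripts were tested on simulated data.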

Additional observations from a re-analysis of the deposited data

Results flagged for a closer look

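In 120 groups of pools (10 genes, 3 measures and 4 odours), Dixon's test at the 95% level marked 17 single pools that stood apart from the rest of their group, and chance marks about 1 in 20 groups. No explanation was tested. Bacon pool 1 was marked 4 times. Its pulldown held 308 CPM of Adcy3 (the other 4 pools 411 to 452), 129 CPM of Ano2 (174 to 188) and 416 CPM of Cnga2 (608 to 667), and its log2 ratio of Adcy3 was 0.37 (0.70 to 0.82). Among the pools without odour, pool 4 had an input of 809 CPM of Gng13 (409 to 516) and a log2 ratio of Cngb1 of 0.64 (0.20 to 0.31). Pool 6 had a pulldown of 780.5 CPM of Gng13 (994 to 1038) and an input of 172 CPM of Cngb1 (131 to 143), and pool 2 had a log2 ratio of Ano2 of 0.29 (0.45 to 0.49). With HFD, pool 2 had an input of 4798 CPM of Gnal (3815 to 4093) and a log2 ratio of Gnal of −0.79 (−0.55 to −0.45). HFD pool 5 had a pulldown of 2824 CPM of Gnal (2777 to 2785) and pool 6 had one of 519 CPM of Cnga2 (553 to 565). With NCD, pool 2 had a log2 ratio of Adcy3 of 0.45 (0.65 to 0.72), pool 1 an input of 182 CPM of Cnga4 (167 to 171) and pool 6 an input of 3059 CPM of Gnb1 (2581 to 2726). The input of bacon pool 4 held 178 CPM of Cnga4 (159 to 164).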

How the results depend on the processing

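The number of members called (main 5) in the pulldown against the input was 8 at an adjusted p under 0.05 and 3 with ribosomal RNA content as a covariate. It was 7 with DESeq2 and under scaling on the OSN markers, 6 with DESeq2's size factors, with at least 1 CPM in 5 libraries and with the length offset, 4 with only the groups compared, and 4 to 7 with 1 pool left out. In the NCD ratio (main 0) it was 2 at 0.05, 1 with only the groups compared and 0 with any pool left out. A fit of pulldown libraries only holds no input, so it tests pulldown levels and not the ratio. With NCD the number called in that fit was 2 (Cngb1 and Ric8b, the latter with adjusted p = 0.000276). In the bacon ratio (main 1) it was 4 at 0.05, 2 with DESeq2's size factors, with at least 1 CPM in 5 libraries, with DESeq2 in the same design, with DESeq2 on pulldown divided by input and with the length offset (Gng13 and Gnb1 each time), 2 in pulldown libraries only (Cngb1 and Ric8b, the latter 0.23, adjusted p = 0.00069), and 0 with the ribosomal RNA covariate and with only the groups compared. Leaving out 1 pool gave 0 to 3, with 3 without bacon pool 1. In the HFD ratio (main 0) it was 2 at 0.05 and 1 in pulldown libraries only. In the input, NCD (main 0) gave 4 at 0.05 and 2 with DESeq2, bacon (main 3) gave 6 at 0.05, 6 with DESeq2, 0 with the ribosomal RNA covariate, 1 with only the groups compared and 1 with the length offset, and HFD (main 0) gave 4 at 0.05 and 2 with DESeq2. Leaving out 1 input gave 0 to 2 with NCD, 2 to 5 with bacon and 0 to 2 with HFD, the highest of each without no-odour pool 6 and, for bacon, also without HFD pool 2. With no filter beyond 1 count, 1 member was called in the bacon ratio, Gnb1 (adjusted p = 0.000883) and not Gng13 (adjusted p = 0.00124). Of the values past the threshold in either fit, the log2 fold change changed sign for Gng13 (0.32) and Gnb1 (0.019) in the bacon input with the ribosomal RNA covariate. For Cngb1 with bacon the pulldown level differed by 0.35 and the ratio by −0.04, which are different quantities. Among values past the threshold in neither fit, the ribosomal RNA covariate turned the sign of Gnal and Slc12a2 in the inputs of all 3 odours and of Gng13 and Gnb1 in those of NCD and HFD. It also turned Ano2 in the bacon and HFD inputs, Ric8b in the bacon input and Cnga4 in the pulldown against the input (−0.06). In the bacon ratio it turned Gnal, Slc12a2, Adcy3 and Cngb1 (0.016, 0.068, 0.022 and 0.10). The causes were not tested. Whether same-numbered pools of different odours share more than a number is not stated in their titles. Their deviations from the group means correlated at medians from −0.51 (inputs numbered 6) to 0.28 (pulldowns numbered 3). These values cannot decide it, since the 2 libraries of a pool, from the same tissue, correlated at a median of only 0.062. With that number as a block, 2 members were called in the bacon input (main 3), 5 in the pulldown against the input and 1 in the bacon ratio, and 0 in the other comparisons. The 5 or 6 pools per group limit the precision more than the counts do.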
